A study of Homo sapiens with 6 samples.

Results

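The miR-23a/27a/24 cluster on chromosome 19 and its paralog on chromosome 9 were followed in cells transfected with miR-27a-3p mimics or with a negative control. Their 8 genes were taken by name from the 58174 genes of the deposited table. On chromosome 19 these were the host gene AC020916.1, now named MIR23AHG, and the hairpin genes MIR23A, MIR27A and MIR24-2. On chromosome 9 they were the hairpin genes MIR23B, MIR27B and MIR24-1 and the protein-coding gene C9orf3, now named AOPEP, which contains them. All 8 names were found, each once.

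The study used 3 samples given the mimic, a synthetic RNA duplex that imitates mature miR-27a-3p, and 3 samples given a negative control (NC), whose sequence the labels do not state. Both groups were the same cultured line, given the label Huh-7, the name of an established human liver cancer line. Both received a lipid transfection reagent, and RNA was taken after 48 h. The series concerns cisplatin sensitivity, but no cisplatin treatment is named for these samples, and no untransfected cells were among them. Expression is given as FPKM, fragments per kilobase of gene and 1e6 fragments, so levels are relative to the rest of each library and already scaled by gene length.

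The liver label did not match the markers. Of 10 liver and hepatoma marker genes, none had a mean of 1 FPKM, and APOB, TTR and GPC3 were listed at 0 in every sample. ALB (albumin), AFP (alpha-fetoprotein), APOA1 and FGB stayed at or below 0.0407 FPKM. The 10 markers together summed to 0.947, 1.27 and 0.912 FPKM in mimic samples and 2.11, 1.08 and 1.16 FPKM in controls. The intermediate filament gene VIM, by contrast, averaged 387.0 ± 16.0 FPKM in mimic samples and 381.0 ± 36.1 FPKM in controls (SD, n = 3 each). The cells are therefore called by their label only.

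MicroRNA genes are transcribed as long primary transcripts. In the nucleus the Microprocessor complex of DROSHA and DGCR8 cuts the hairpins out of them, and in the cytoplasm DICER1 trims each hairpin to a duplex from which an Argonaute protein keeps the mature strand. The mature strand pairs with messenger RNAs mainly through its seed, bases 2 to 8. The miR-23a/27a/24 cluster is made from a single non-coding transcript and is known for roles in lipid metabolism, muscle atrophy and blood cell fate. Libraries of this kind, built from long RNA, see pieces of the primary transcript and its processing remnants, and measure neither the mature microRNA nor the transfected duplex.

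The mature 3p strands show why the 2 loci are treated as paralogs. They are given here 5′ to 3′ from RefSeq (GRCh38.p14), with the seed in capitals, the chromosome 19 member first in each family.
hsa-miR-23a-3p: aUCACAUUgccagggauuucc
hsa-miR-23b-3p: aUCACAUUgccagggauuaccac
hsa-miR-27a-3p: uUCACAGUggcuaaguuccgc
hsa-miR-27b-3p: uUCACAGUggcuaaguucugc
hsa-miR-24-3p, from both MIR24-2 and MIR24-1: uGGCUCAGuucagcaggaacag

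Each family has the same seed at both loci. Counted from 1 at the 5′ end, miR-27a-3p and miR-27b-3p differ over their 21 bases only by C19U. The first 21 bases of miR-23a-3p and miR-23b-3p differ only by U19A, and miR-23b-3p is 2 bases longer. The miR-24-3p strand is identical over its 22 bases. The hairpins around these strands are less alike, with 62.6% identical alignment columns for the miR-23 pair, 58.6% for the miR-27 pair and 76.0% for the miR-24 pair.

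The hairpin sequences are shown because the deposited values were assigned to these stretches, and the 3p strand is in capitals within each.
MIR23A, chr19:13836587-13836659, minus strand: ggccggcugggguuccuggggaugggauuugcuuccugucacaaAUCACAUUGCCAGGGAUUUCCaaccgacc
MIR27A, chr19:13836440-13836517, minus strand: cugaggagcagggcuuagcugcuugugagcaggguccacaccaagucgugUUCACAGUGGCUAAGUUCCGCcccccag
MIR24-2, chr19:13836287-13836359, minus strand: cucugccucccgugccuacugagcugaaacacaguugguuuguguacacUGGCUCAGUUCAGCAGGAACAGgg
MIR27B, chr9:95085445-95085541, plus strand: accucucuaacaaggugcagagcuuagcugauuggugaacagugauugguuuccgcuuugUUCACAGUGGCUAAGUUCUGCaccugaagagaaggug

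On chromosome 19 the hairpins lie within 373 bases, in the order MIR23A, MIR27A, MIR24-2 along the minus strand, separated by 69 and 80 bases. The deposited table gives AC020916.1 the interval 13834516 to 13836289 (hg38), which is 1774 bases long. It overlaps MIR24-2 by 3 bases and continues downstream of it, so the gene as measured here is the stretch after the last hairpin. Other annotations draw it longer. RefSeq gives the gene 8403 bases, from 13834516 to 13842918, with its start 6259 bases upstream of MIR23A, and GENCODE 29 gives it 19049 bases, from 13823880 to 13842928. On chromosome 9 the hairpins lie within 881 bases on the plus strand, in the order MIR23B, MIR27B, MIR24-1, with the end of C9orf3 1130 bases beyond MIR24-1. Of 22 C9orf3 transcripts in GENCODE 29, 7 span the hairpins, and all 7 carry MIR23B and MIR27B in an intron. In 1 of the 7 an exon overlaps MIR24-1. The level of C9orf3 is 1 value per gene and does not separate these 7 from its other transcripts.

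The host gene of the chromosome 19 cluster was far lower in mimic samples. AC020916.1 stood at 15.2, 12.6 and 11.7 FPKM in mimic samples 1, 2 and 3, and at 174.6, 166.9 and 180.2 FPKM in control samples 1, 2 and 3. Every mimic sample lay below every control sample, as in 44.3% of all tested genes, and the spread within each group was small beside the gap. By limma the log2 fold change of mimic over control, on the log2(FPKM + 0.5) scale used for all fold changes here, was -3.68 (SE 0.14, 95% interval -4.00 to -3.36, adjusted p = 4.73e-06 over 14439 genes). The mimic mean was 0.0757 of the control mean. In bulk RNA, fewer cells of a kind and less RNA per cell cannot be told apart. Per library, mimic samples had 13007 to 13250 genes at 1 FPKM or more and controls 15109 to 15494; the part this plays in any single level was not tested. Among the genes of each library, ordered from the highest FPKM, AC020916.1 ranked 4602, 5283 and 5110 in mimic samples, against 292, 300 and 252 in controls.

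The 3 hairpin genes of chromosome 19 were lower as well. MIR27A, which encodes the microRNA that the mimic copies, was listed at 0, 0.398 and 0.474 FPKM in mimic samples and at 10.1, 11.2 and 8.94 FPKM in controls. MIR24-2 was listed at 0.849, 0.249 and 5.6e-05 FPKM in mimic samples and at 13.6, 16.5 and 12.7 FPKM in controls. MIR23A was listed at 0, 0.133 and 0 FPKM in mimic samples and at 5.85, 10.3 and 4.61 FPKM in controls. In none of these 3 genes did the groups overlap. Across all tested genes the groups did not overlap in 60.5%, with mimic lower in 44.3%.

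The fitted log2 fold changes were -3.80 for MIR27A (SE 0.26, adjusted p = 3.79e-05), -4.20 for MIR24-2 (SE 0.33, adjusted p = 7.77e-05) and -3.70 for MIR23A (SE 0.27, adjusted p = 5.11e-05). These 3 genes reached the minimum mean of 1 FPKM for testing through the controls only, so passing the filter already required a difference. Their fitted values depend on the pseudocount of 0.5, since several mimic values are at or near 0.

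**Figure D1:**
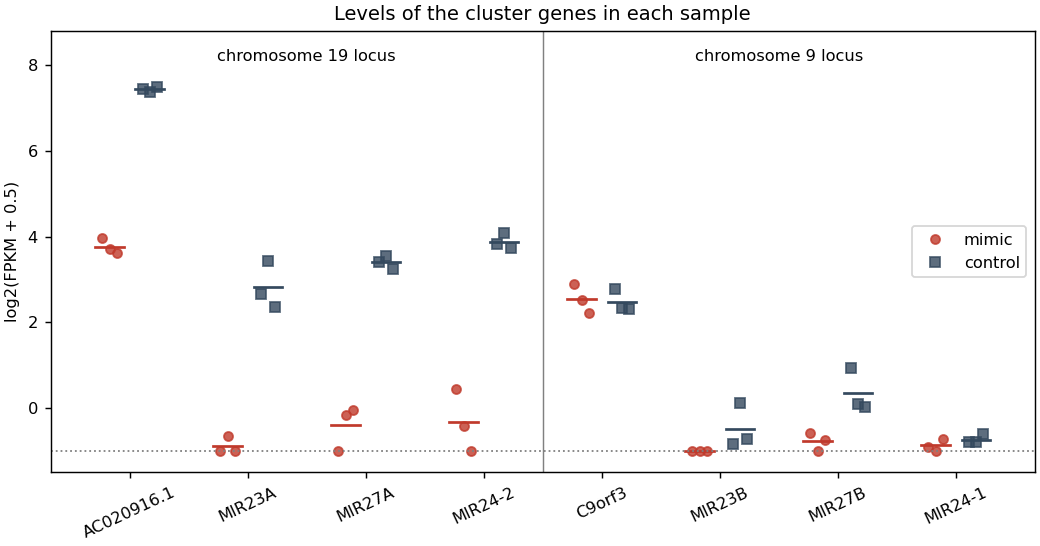
Levels of the 8 cluster genes in each sample, as log2(FPKM + 0.5), with mimic samples as red circles, control samples as dark squares and group means as short lines; the dotted line marks 0 FPKM. The 4 genes of the chromosome 19 locus are lower in every mimic sample than in any control sample, while C9orf3 covers the same range in both groups. Mimic samples lie wholly below controls in 44.3% of all tested genes.

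The levels along the chromosome 19 transcript had an order in the controls. In each of the 3 control samples FPKM was lowest at MIR23A, higher at MIR27A, higher again at MIR24-2 and highest in the AC020916.1 interval downstream. MIR27A and MIR23A were close in control sample 2, at 11.2 and 10.3 FPKM. In the mimic samples the hairpins kept no common order. The 3 hairpins summed to 0.849, 0.780 and 0.474 FPKM in mimic samples and 29.6, 38.0 and 26.3 FPKM in controls. Relative to AC020916.1 in the same library, that sum was 5.57%, 6.19% and 4.05% in mimic samples, against 16.9%, 22.7% and 14.6% in controls.

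**Figure D2:**
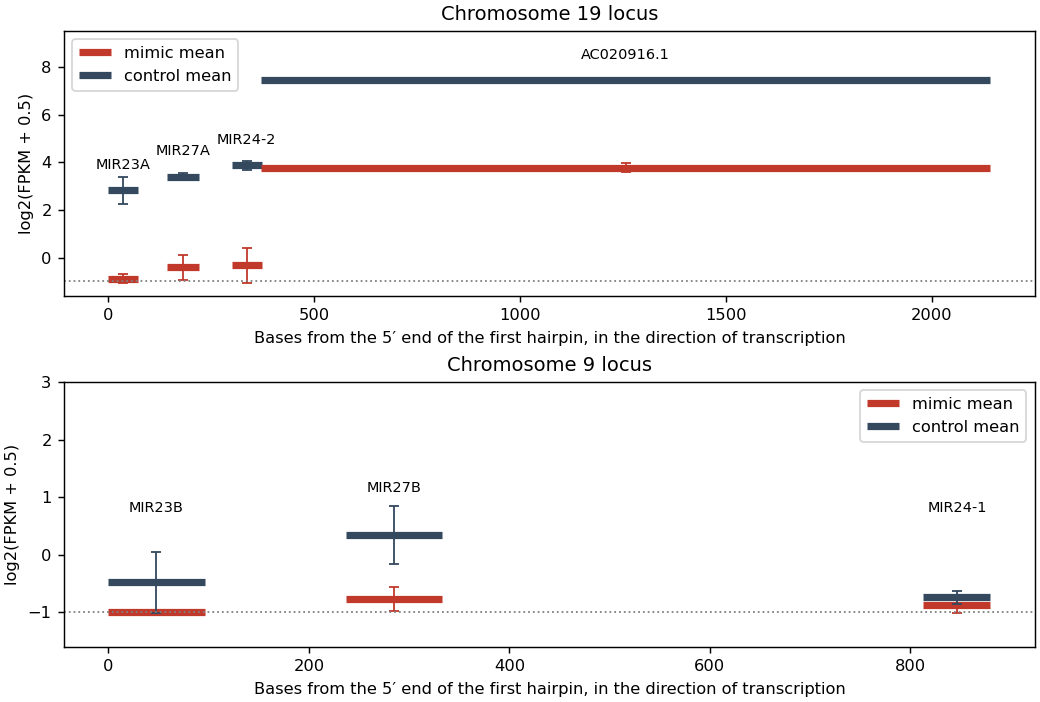
Mean log2(FPKM + 0.5) of each gene drawn over its position, in bases from the 5′ end of the first hairpin in the direction of transcription (red, mimic; dark, control; error bars are SD of 3 samples; the dotted line marks 0 FPKM). Control means of the chromosome 19 locus step up from MIR23A to AC020916.1, and mimic means lie lower at every feature; C9orf3 is not drawn, since its exons extend far outside the window.

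Short genes limit what the hairpin values can say. FPKM times length gathered at 1 shared value in each library, as single fragments would, which implies library sizes, in units of 1e6 fragments, of about 31, 25.1 and 28.2 in mimic samples against 19.3, 21.1 and 17 in controls. On that scale MIR27A held the equivalent of 0, 0.78 and 1.04 fragments in mimic samples and 15.2, 18.5 and 11.8 in controls. MIR24-2 held 1.92, 0.457 and 0.000115 in mimic samples, against 19.2, 25.4 and 15.8 in controls, and MIR23A held 0, 0.243 and 0 in mimic samples, against 8.24, 15.9 and 5.71 in controls. Parts of a fragment appear, so these are not read counts.

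Many short genes that passed the filter were also lower. Among 293 other tested genes of at most 150 bases, 194 were lower and 10 higher, where 39.6% of all tested genes were lower and 12% higher. Their median log2 fold change was -1.29, and that of all tested genes was -0.29. With no filter 427 of 2507 short genes were lower and 15 higher, at a median of -0.17. In that fit a larger share of all genes was lower, 24.5%, with 8755 lower and 1530 higher of 35796. Their median, -0.13, was close to that of the short genes. When each sample was corrected for a trend with gene length, 70 of the 293 were lower and 41 higher, at a median of -0.23. That correction subtracts a running median over genes of similar span, introns included, so by design it moves short genes as a set towards 0. The same correction gave 3797 lower and 3710 higher of all 14439 tested genes, at a median of 0.01. The hairpins then had log2 fold changes of -2.63 for MIR27A, -3.12 for MIR24-2 and -2.57 for MIR23A, all still called, with limma adjusted p from 0.000357 to 0.000541. AC020916.1 stood at -3.18 under the same correction. How far gene length contributes to the hairpin values was not tested beyond this correction.

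C9orf3, the protein-coding host of the paralog cluster, encodes aminopeptidase O, a metallopeptidase, and was not called. It stood at 6.88, 5.20 and 4.18 FPKM in mimic samples and at 6.34, 4.53 and 4.43 FPKM in controls, so the groups overlapped. Its log2 fold change was 0.07 (SE 0.21, adjusted p = 0.794 by limma), and the 95% interval from -0.41 to 0.55 leaves room for a modest change in either direction. Its sign turned without mimic sample 1 (-0.10) or without control sample 3 (-0.01).

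The hairpin genes inside C9orf3 were near the bottom of the scale in both groups, all under the testing minimum of 1 FPKM. MIR27B was listed at 0.167, 0 and 0.0976 FPKM in mimic samples and at 1.41, 0.564 and 0.512 FPKM in controls, with no overlap. Among tested genes, 44.3% had no overlap with mimic lower. MIR23B was listed at 0 in all 3 mimic samples and at 0.0587, 0.587 and 0.104 FPKM in controls. MIR24-1 was listed at 0.0350, 0 and 0.109 FPKM in mimic samples and at 0.0715, 0.0711 and 0.154 FPKM in controls, and here the groups overlapped.

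In implied fragments, MIR27B held at most 2.63 in any sample, MIR23B at most 1.2 and MIR24-1 at most 0.209. When the fit was repeated with no filter on low values, MIR27B was called lower (log2 fold change -1.12, limma adjusted p = 0.0245), in a fit that called 24.5% of 35796 genes lower. MIR23B (-0.52, adjusted p = 0.179) and MIR24-1 (-0.13, adjusted p = 0.416) were not. The summed level of these 3 hairpins was 0.202, 0 and 0.207 FPKM in mimic samples and 1.54, 1.22 and 0.771 FPKM in controls.

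The 2 host genes were then compared with each other. AC020916.1 was 2.21, 2.42 and 2.80 times as high as C9orf3 in mimic samples and 27.5, 36.9 and 40.6 times as high in controls. The log2 difference between the hosts averaged 1.22 ± 0.15 in mimic samples and 4.98 ± 0.27 in controls (SD, n = 3 each), a shift of -3.75. A two-sided exact permutation test of that shift gave p = 0.1, the smallest value that 3 samples against 3 allow. The chromosome 19 host therefore changed relative to C9orf3 by more than the spread between samples, in a design that cannot pass 0.05 on this test.

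Of the 8 cluster genes 5 were tested, and 4 of them were called lower, in a fit that called 39.6% of all 14439 tested genes lower and 12% higher, 51.6% in either direction. The groups did not overlap in 60.5% of tested genes, with mimic lower in 44.3%. A call alone was therefore common, and the count of 4 supports nothing by itself, since 3 of them passed the filter through the controls. AC020916.1 was above the filter in both groups, and 19 tested genes had a more negative fitted log2 fold change. No rank is given for the hairpins, whose fitted values follow the pseudocount; that of MIR23A was -5.64 at a pseudocount of 0.1 and -2.86 at 1.

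**Figure D3:**
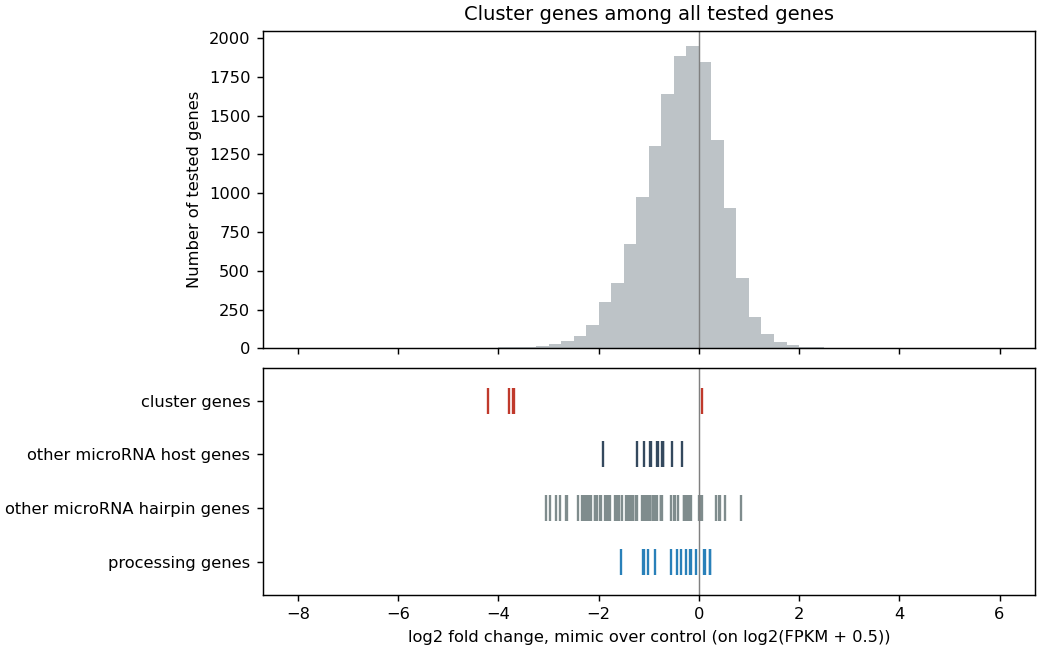
Upper panel, number of tested genes by log2 fold change of mimic over control, in steps of 0.25; lower panel, the same quantity for single genes, 1 tick each, in the cluster, in other microRNA host genes, in other microRNA hairpin genes and in processing genes. Of the 5 cluster ticks, that of AC020916.1 lies at -3.68, left of every tick of the other host genes and the processing genes. That of C9orf3 lies at 0.07. The other 3 are hairpin genes, from -4.20 to -3.70, which passed the filter through the controls only. Their positions follow the pseudocount, so they are not ranked. Other host genes and processing genes with control means of 4.79 FPKM (AGO4) or less could not lie at -3.68, because of the pseudocount.

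Other non-coding hosts of microRNAs served as a comparison. Of 22 such genes 12 were tested, with 8 lower, none higher and a median log2 fold change of -0.82, beside 39.6% lower and 12% higher over all tested genes. MIR22HG, the host of miR-22, averaged 1.58 ± 0.35 FPKM in mimic samples and 7.46 ± 2.27 FPKM in controls (-1.91, SE 0.23, adjusted p = 0.000318). DLEU2, the host of the miR-15a and miR-16-1 hairpins, averaged 1.43 ± 0.05 FPKM in mimic samples and 4.09 ± 0.77 FPKM in controls (-1.24, SE 0.17). MIR99AHG, the host of the miR-99a and let-7c hairpins, averaged 4.11 ± 0.25 FPKM in mimic samples and 7.67 ± 0.24 FPKM in controls (-0.83, SE 0.12). None of the 12 had a fitted log2 fold change as low as that of AC020916.1. Hosts with control means of 4.19 FPKM (MIR100HG) or less could not have reached it even at 0 in mimic samples, because of the pseudocount. For them the comparison decides nothing. Among the tested hosts with control means of 6.78 FPKM (MIR503HG) or more, which could have reached it, the lowest was MIR22HG at -1.91. On scaling by median of ratios, which took the median of all genes to 0.01, against -0.29 on the deposited scale, 4 of the 12 were called lower and none higher. That scaling called 3953 of all 14439 tested genes lower and 3889 higher.

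Of the 83 other microRNA hairpin genes that were tested, 54 were lower and 1 was higher (median -1.10), beside the same 39.6% and 12% over all tested genes. After length correction 16 of the 83 were lower and 12 higher (median -0.20), beside 3797 lower and 3710 higher of all 14439 tested genes. With no filter 132 of 817 were lower and 4 higher (median -0.15), beside 8755 lower and 1530 higher of all 35796 genes. In both of these fits the hairpin genes were called lower less often than all genes, which the length correction favours by design for short genes. On the fitted scale at a pseudocount of 0.5, the lowest of the 83 was MIR8075 at -3.04. By group means alone some differed more than the chromosome 19 hairpins without being called, such as MIR3658, with a mean of 8.67e-06 FPKM in mimic samples and 19.8 FPKM in controls (fitted value -2.30, limma adjusted p = 0.343). GENCODE 29 places AC020916.1 among antisense genes, and of 788 others tested in that class 563 were lower and 27 higher, at a median of -0.91.

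Tested neighbours of the chromosome 19 cluster lay on both sides of 0. Within 250 kb of the chromosome 19 genes, 10 other genes were tested. Of these 3 were lower and 3 higher, or 30% each, and the median was 0.01. Across all tested genes 39.6% were lower and 12% higher, at a median of -0.29. The nearest tested gene, ZSWIM4, ends 4.06 kb from the hairpins on the opposite strand and was higher, at 17.5, 17.4 and 20.3 FPKM in mimic samples and 12.3, 12.9 and 11.7 FPKM in controls (0.56, SE 0.13, limma adjusted p = 0.00674). In GENCODE 29, unlike in the deposited table, the AC020916.1 interval runs into the end of ZSWIM4, and the sources used here give no strand setting for the counts.

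On the other side, C19orf57, now BRME1, a meiotic recombination gene, lay 45.7 kb away and was lower, at 2.10, 1.88 and 1.67 FPKM in mimic samples and 4.90, 5.68 and 4.44 FPKM in controls (-1.21, SE 0.15, adjusted p = 0.000409). NANOS3, a germ cell gene that lies between them at 25.4 kb, was under the testing minimum, at 0.0462, 0.152 and 0 FPKM in mimic samples and 0.782, 0.314 and 0.781 FPKM in controls. The hairpin genes MIR181C and MIR181D beside NANOS3 were listed at 0 in all 6 samples. Farther away, MISP3 was lower (-1.91, SE 0.16) and RFX1, a transcription factor of the RFX family, was higher (0.90, SE 0.14), both called.

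**Figure D4:**
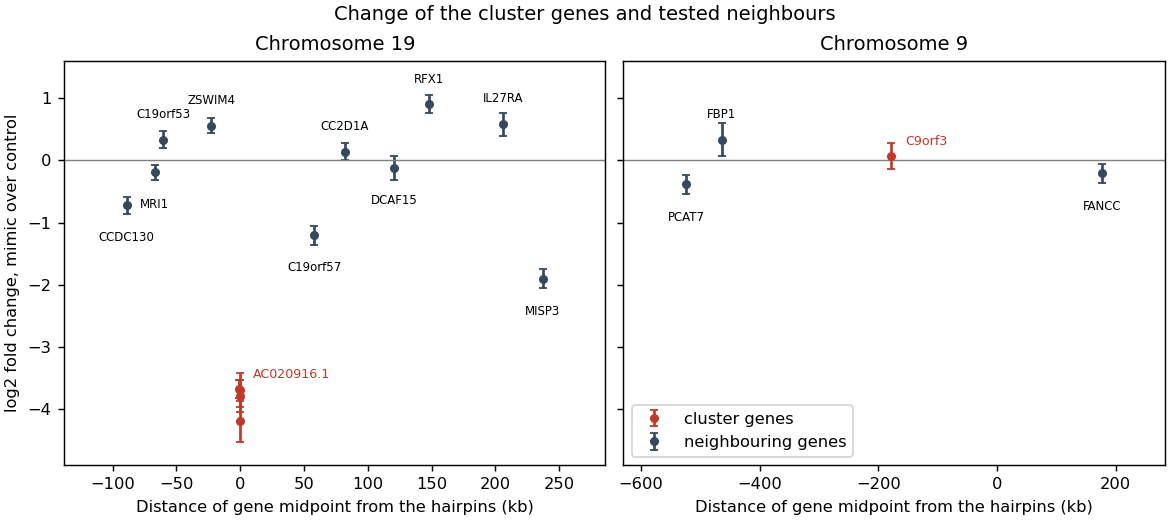
Log2 fold change of mimic over control, with its standard error, for the tested cluster genes (red) and tested neighbours (dark), against the distance of each gene's midpoint from the hairpins in kb. AC020916.1 lies at -3.68, below every tested neighbour, of which the lowest is MISP3 at -1.91. Tested neighbours with control means of 5.01 FPKM (C19orf57) or less could not lie at -3.68, because of the pseudocount. The 3 hairpin genes of chromosome 19, from -4.20 to -3.70, passed the filter through the controls only. Their positions follow the pseudocount, so they are not ranked.

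Within 250 kb of the chromosome 9 genes only 3 others were tested and none was called, where 51.6% of all tested genes were called. FANCC, a Fanconi anaemia gene that converges on C9orf3 from the other strand 13.0 kb from the hairpins, averaged 7.77 FPKM in mimic samples and 9.05 FPKM in controls (-0.21, SE 0.15, adjusted p = 0.282). MIR3074, annotated on the strand opposite MIR24-1, was listed at 0 in all 6 samples, as was MIR23C on chromosome X, a further gene of the miR-23 family.

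Genes of the machinery that matures these hairpins were called lower about as often as genes in general. Of 16 tested genes 7 were lower, or 43.8%, beside 39.6% of all tested genes, and none was higher, beside 12%. The median of -0.31 was near that of all genes. DGCR8, the RNA-binding partner in the Microprocessor, averaged 7.48 ± 1.55 FPKM in mimic samples and 15.4 ± 1.2 FPKM in controls (-1.01, SE 0.17, adjusted p = 0.00166). DROSHA, its nuclease, averaged 48.0 ± 5.2 FPKM in mimic samples and 61.5 ± 2.2 FPKM in controls (-0.36, SE 0.13, adjusted p = 0.0498), just inside the threshold. The helicase genes DDX17 (-1.55, SE 0.15) and DDX5 (-1.11, SE 0.16), whose products assist the Microprocessor, and the nuclease gene DICER1 (-1.09, SE 0.16) had the smallest p of the list. After median-of-ratios scaling 5 of the 16 were called lower and 2 higher, beside 3953 lower and 3889 higher of all 14439 tested genes.

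The genes with levels most like AC020916.1 across the 6 samples were sought among 9455 others with a mean of at least 5 FPKM, by the root mean square difference of centred log2 values. The closest were SAT1, a polyamine acetyltransferase gene (difference 0.0969), and CYR61, now CCN1, a matricellular protein gene (0.108). The lncRNA gene AC012181.3 followed (0.129), with the near-identical histone H3 genes HIST2H3A (0.149) and HIST2H3C (0.159), whose reads cannot be told apart with certainty. SAT1 stood at 42.0, 36.9 and 32.6 FPKM in mimic samples and 539.3, 457.4 and 444.9 FPKM in controls, and CYR61 at 67.3, 69.8 and 65.1 FPKM in mimic samples and 868.5, 809.7 and 892.1 FPKM in controls. With 2 well separated groups this likeness rests almost wholly on the size of the difference between them. The 3 genes closest to C9orf3 were GPRC5C (0.0453), DHRS3 (0.0677) and RANGRF (0.0768), none of them called.

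The stretch of the host gene measured here was searched for words that pair with the seed of the mimic. The rest of its longer annotations was not searched. The 1774 bases of the AC020916.1 interval, read from the GENCODE 29 transcript, hold none of the words ACTGTGAA, ACTGTGA and CTGTGAA, the 8mer and the pair of 7mers that pair with the seed of miR-27a-3p. For comparison, 29.6% of 10869 tested genes with a long enough transcript held at least 1 of the 3 words in the last 1774 bases of their longest transcript. The longest C9orf3 transcript, of 3136 bases, held none of them either. This describes the letters of these stretches only.

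The stretch around the annotated start of MIR23AHG is shown, from 250 bases before to 50 after it in RefSeq (GRCh38.p14). GC boxes (GGGCGG on either strand, the letters bound by SP1) are in capitals.
MIR23AHG, chr19:13842869-13843168, minus strand: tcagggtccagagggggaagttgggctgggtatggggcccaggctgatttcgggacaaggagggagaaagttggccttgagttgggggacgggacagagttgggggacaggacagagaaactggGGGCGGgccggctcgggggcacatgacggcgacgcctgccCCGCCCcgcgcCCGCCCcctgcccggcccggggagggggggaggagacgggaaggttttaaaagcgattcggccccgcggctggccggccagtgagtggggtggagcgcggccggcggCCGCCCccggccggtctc
It holds 4 GC boxes, and at least 1 is held by 45.0% of 35116 promoters of the same length. The first AOPEP promoter, chr9:94726449-94726748 on the plus strand, holds 2 GC boxes and 1 cyclic AMP response element (TGACGTCA), a word found in 1.85% of promoters. No E-box (CACGTG, in 7.26% of promoters) or AP-1 word (TGANTCA, in 7.71%) was found in either. The searches covered both strands, and a match is not evidence of binding.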

How the data were processed

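RNA from 6 samples was sequenced after library preparation from 1 µg of total RNA with an mRNA kit, per the labels' protocols, and groups follow the sample titles. The deposited tables give FPKM per gene, per the file headers; FastQC, HISAT2 and hg38 are named by the submitters' processing notes, while for the counting tool, annotation release and strand setting the sources used here give nothing. The 6 single-sample tables and the series table held identical values. Whether the samples were separate cultures is unstated in the labels; p-values therefore reflect spread among these 6 samples alone, and that spread may be technical.

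The 14439 genes averaging 1 FPKM or more were tested with limma-trend (limma 3.58.1, R 4.3.3) with robust moderation on log2(FPKM + 0.5), unscaled, with Benjamini-Hochberg adjustment at 0.05. The fit was tested on simulated data. The members, lists and tests were chosen with earlier results of these data known. Named genes are the members, genes within 50 kb of the hairpins, up to 3 genes per list with the smallest p, and the closest profiles; MISP3, RFX1, MIR8075, MIR3658, DROSHA, DGCR8, SPI1, MIR23C and the marker genes fall outside that rule and were chosen after their values were seen, as were the implied fragments and the motif and seed searches. The older names of 4 host genes were matched by identifier. Depth is not stated, so no counting interval is given; the implied fragments rest on single-exon genes within 1% of a shared value. Alternatives changed the pseudocount, filter, scaling, length trend, block, moderation and each sample.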

Additional observations from a re-analysis of the deposited data

How the results depend on the processing

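The log2 fold changes of AC020916.1 (-3.79 to -3.18 over 16 alternatives), MIR27A (-5.05 to -2.63 over 16), MIR24-2 (-5.47 to -3.12 over 16) and MIR23A (-5.64 to -2.57 over 15, since it has no value at a minimum mean of 5 FPKM) kept their direction and their call, with limma adjusted p up to 0.000961. C9orf3 stayed uncalled in 16 (adjusted p from 0.0515 under quantile normalization to 0.997); its sign turned without mimic sample 1 (-0.10) and without control sample 3 (-0.01), and its values without 1 sample ran from -0.10 to 0.23. The shift between the host genes ran from -4.13 to -3.48 over 13 alternatives. Same-numbered samples did not deviate together, with correlations of 0.177, -0.0467 and 0.223, so the numbers were not taken as pairs; with the replicate block 5994 genes were lower and 2117 higher, and no call of a cluster gene changed. That block allows no p below 0.25 for the shift between hosts.

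Counts over all genes (5718 lower, 1735 higher) moved more. No filter gave 8755 lower and a minimum of 5 FPKM gave 2916. Median-of-ratios scaling gave 3889 higher, quantile normalization 3289 lower and 3592 higher, and length correction 3797 lower and 3710 higher, so higher genes made up 49.6%, 52.2% and 49.4% of calls in turn, against 23.3% on the deposited scale. Without 1 sample, 4695 to 5732 were lower and 1256 to 1822 higher. The median of chromosome 19 neighbours (0.01) was 0.24 at a minimum of 5 FPKM, 0.33 after median-of-ratios scaling and 0.20 after length correction. That of chromosome 9 neighbours (-0.21) was 0.10, 0.37 and 0.035 under median-of-ratios scaling, quantile normalization and length correction. That of short genes (-1.29) was -1.54 and -1.05 at pseudocounts of 0.1 and 1, -0.17 with no filter, -0.90 at a minimum of 5 FPKM, -1.04 and -0.65 under median-of-ratios scaling and quantile normalization, -0.23 after length correction, and -1.38 to -1.22 without 1 sample. The cause of these moves was not tested. Mean levels under 1 FPKM limit what can be said of the chromosome 9 hairpins.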

Other observations

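Genes reported, in human or mouse cells, to regulate transcription of the miR-23a cluster were called about as often as genes in general. Of 10 such genes 8 were tested, with 2 lower, 2 higher and 4 not called, at a median log2 fold change of -0.16. Over all tested genes 39.6% were lower and 12% higher, 51.6% in either direction. Neither higher call held without mimic sample 2, without control sample 1 or without control sample 3. The count of lower genes was 1 in each fit without 1 sample, except without mimic sample 3, where it was 2. SP1, which binds GC boxes, averaged 23.7 ± 2.9 FPKM in mimic samples and 35.3 ± 1.9 FPKM in controls (-0.57, SE 0.14, limma adjusted p = 0.0088). NFKB1, an NF-kappaB subunit gene, averaged 11.3 ± 1.2 FPKM in mimic samples and 7.81 ± 1.04 FPKM in controls (0.51, SE 0.15, adjusted p = 0.0207). MEF2D, a transcription factor gene of the MEF2 family, averaged 19.4 ± 2.7 FPKM in mimic samples and 14.3 ± 1.0 FPKM in controls (0.41, SE 0.15, adjusted p = 0.0423). SPI1, a regulator of the cluster in mouse blood cells, was at or below 0.0878 FPKM in every sample. After median-of-ratios scaling none of the 8 was called lower and 3 were called higher, beside 3953 lower and 3889 higher of all 14439 tested genes.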
